A study of Mus musculus with 6 samples.

Results

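The enzymes that turn arachidonate into prostaglandins, thromboxane and leukotrienes were examined in cultured bone marrow-derived macrophages (BMDMs) with and without myeloid Scd2 deletion (Scd2-m/-m and wild type). The set holds 10 genes, chosen by name for their place in the pathway: Ptgs1, Ptgs2, Ptges, Hpgds, Tbxas1, Alox5, Alox5ap, Lta4h, Ltc4s and Alox15. All 10 were among the 40481 genes of the count table, and 9 of them were among the 14778 genes with enough counts to be tested, Alox15 being the exception. RNA was sequenced from 3 wild-type and 3 Scd2-m/-m samples of unstimulated BMDMs, with 1 poly(A)-selected library each. In Scd2-m/-m mice a floxed Scd2, which encodes a stearoyl-CoA desaturase, is deleted by Cre recombinase driven by the lysozyme M gene, so deletion depends on that promoter being active in myeloid cells. Both genotypes were cultured for 5 to 6 days in CMG conditioned medium, a source of macrophage colony-stimulating factor, at 10% during differentiation with a change of medium on day 3 and at 2% once mature. The mice were of both sexes and aged 2 to 5 months, and whether the wild-type samples carried Cre, and the sex and age behind each library, are not stated in the labels or methods. Nothing states that the 3 samples of a genotype came from separate animals or cultures, so the p-values measure only the spread between these samples, which may be technical.

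Phospholipases free arachidonate, a polyunsaturated fatty acid, from membrane phospholipids. Cyclooxygenases convert it to the endoperoxide from which separate synthases make each prostaglandin and thromboxane, while 5-lipoxygenase, helped by its activating protein, makes the unstable epoxide from which leukotrienes are formed. Macrophages are a major source of these short-lived lipid signals, which act on nearby cells through G protein-coupled receptors in pain, fever, vascular leak and the recruitment of leukocytes.

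The libraries held between 46285176 and 57629638 counts on genes, and their scaling factors (TMM, the trimmed mean of M values of edgeR) lay between 0.979 and 1.02. Levels are given as CPM (the count scaled to a library of 1000000 TMM-adjusted counts). Differences are log2 fold changes of Scd2-m/-m over wild type from edgeR's quasi-likelihood test with a standard error (SE), and the false discovery rate (FDR) is the Benjamini-Hochberg adjusted p over all 14778 genes, with genes called at an FDR below 0.05. Scd2 itself was measured at 66.9, 77.7 and 62.7 CPM in the wild-type samples and at 59.5, 37.9 and 39.8 CPM in Scd2-m/-m libraries (log2 fold change -0.59, SE 0.19, FDR = 0.10). Scd2-m/-m replicate 1 was therefore close to the lowest wild-type library in the targeted gene, and results are also given without it. By qPCR, another measure, the study reported a much larger fall of Scd2 transcript in Scd2-m/-m macrophages. The counts here are for the whole gene and do not show how far its floxed part was deleted in any library. Of 8 macrophage markers, all were detected and tested, with 5 called lower and 1 higher in Scd2-m/-m. Of all tested genes, 7.84% were called lower and 9.65% higher. The summed level of the macrophage markers was 36460 to 37780 CPM in wild-type and 20740 to 21360 CPM in Scd2-m/-m libraries. Most of that drop was Lyz2, the gene whose promoter drives the Cre, which went from 22740 ± 583 to 9025 ± 357 CPM (SD, n = 3 each). Csf1r, Adgre1 and Mertk, also called lower, were at 71.2% to 79.8% of their wild-type mean, Fcgr1 and Itgam were both at 93.5% and not called, and Cd68 was called higher at 117%.

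The enzymes did not move in a single direction. Ptgs1 and Ptges, which act in sequence toward prostaglandin E2, fell to 58.03% and 35.5% of their wild-type level. Alox5ap, Ltc4s and Hpgds rose, by log2 fold changes of 0.26 to 0.43. The test called 5 of the 9 tested members, where 17.5% of all tested genes were called. The 3 members called higher stand beside 9.65% of all tested genes called in that direction, and the 2 called lower beside 7.84%. The median log2 fold change of the 9 was 0.08, against 0.0039 over all tested genes. Libraries of the genotypes did not overlap for 5 of the 9 tested members (Ptgs1, Ptges, Alox5, Alox5ap and Ltc4s), as for 34.8% of all tested genes. No member passed the study's limit of an absolute log2 fold change above 2, which 0.663% of tested genes passed together with the FDR. Since the RNA came from whole cultures, fewer cells of a type and less RNA per cell cannot be told apart in any of these values.

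**Figure D1:**
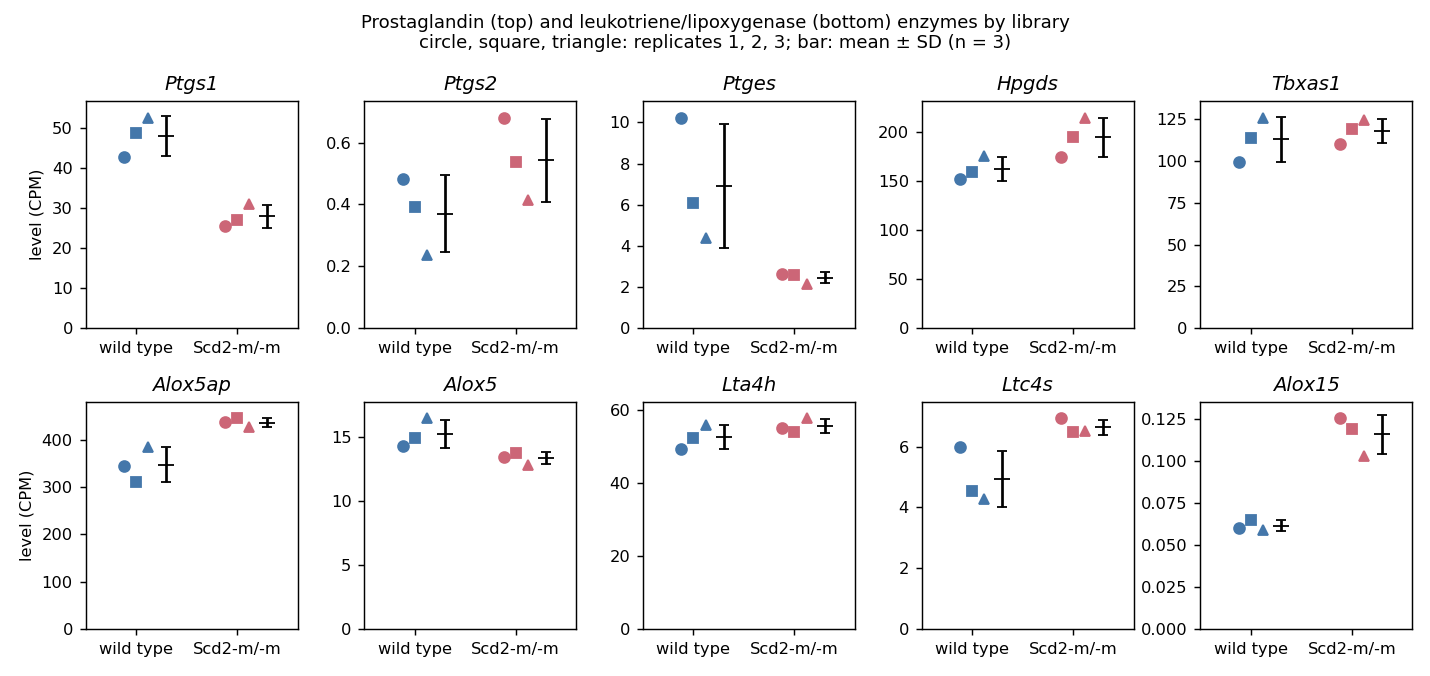
CPM (vertical axis, from 0, with its own scale for each gene) of the 10 enzymes in the 3 wild-type and 3 Scd2-m/-m libraries, each point being 1 library and each bar the mean with its SD. Ptgs1 and Ptges lie lower in all 3 Scd2-m/-m libraries, Alox5ap and Ltc4s lie higher, and Hpgds overlaps since its lowest Scd2-m/-m library (174 CPM) is below its highest wild-type library (176 CPM).

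Among the cyclooxygenases, Ptgs1 encodes cyclooxygenase-1, the form that many cells make without stimulation. It was at 42.8, 48.9 and 52.7 CPM in wild-type libraries and at 25.7, 27.0 and 31.1 CPM in Scd2-m/-m libraries. The ranges were apart, with all Scd2-m/-m values on the low side. From means of 48.1 ± 4.96 and 27.9 ± 2.82 CPM (SD, n = 3 each), the log2 fold change was -0.78 (SE 0.09, edgeR FDR = 4.10e-05, 95% interval -0.97 to -0.60). Ptgs1 was the member with the lowest FDR and it stayed called whichever library was left out, with an FDR of 4.26e-04 without Scd2-m/-m replicate 1. The gene (ENSMUSG00000047250) lies on the plus strand at chr2:36230426-36252272 of GRCm38. A predicted gene on the opposite strand shares 3.81% of its exon bases, and the labels and methods do not say if counting used strand. Ptgs2, in contrast, encodes cyclooxygenase-2, which is induced by inflammatory stimuli, and these cells were unstimulated. It was at 0.483, 0.390 and 0.236 CPM in wild-type and at 0.681, 0.537 and 0.413 CPM in Scd2-m/-m libraries, which rest on 12 to 38 counts each. The genotypes overlapped, and the log2 fold change of 0.55 (SE 0.38, edgeR FDR = 0.360) had a 95% interval from -0.26 to 1.37, so a change was not detectable at this depth. By qPCR, another measure, the study reported Ptgs2 as upregulated in unstimulated Scd2-m/-m macrophages.

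Of the synthases that work on the cyclooxygenase product, Ptges encodes microsomal prostaglandin E synthase-1, the inducible terminal enzyme of prostaglandin E2 synthesis. It had the largest difference among the called members. Its level was 10.2, 6.07 and 4.37 CPM in wild-type and 2.62, 2.59 and 2.13 CPM in Scd2-m/-m libraries. The wild-type libraries spread widely, their highest being 2.34 times their lowest, while the Scd2-m/-m libraries lay within 1.23 times of each other, all below the lowest wild-type library. The means of 6.89 ± 3.02 CPM and 2.44 ± 0.270 CPM (SD, n = 3 each) gave a log2 fold change of -1.50 (SE 0.30, edgeR FDR = 0.0112, 95% interval -2.18 to -0.81). Without wild-type replicate 1, the highest library, the log2 fold change was -1.09 (FDR = 6.04e-04). The call was lost without Scd2-m/-m replicate 1 (-1.55, edgeR FDR = 0.0585) and without Scd2-m/-m replicate 3 (-1.41, edgeR FDR = 0.0888), although the difference kept its size.

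Hpgds encodes the hematopoietic prostaglandin D synthase, a cytosolic glutathione-dependent enzyme. It was at 152, 159 and 176 CPM in wild-type and at 174, 195 and 215 CPM in Scd2-m/-m libraries. The lowest Scd2-m/-m library was just below the highest wild-type library, so the genotypes overlapped, with means of 162 ± 12.4 and 195 ± 20.03 CPM (SD, n = 3 each). The log2 fold change was 0.26 (SE 0.08, edgeR FDR = 0.0327, 95% interval 0.09 to 0.43). The call was lost without wild-type replicate 1 (FDR = 0.0920), wild-type replicate 2 (FDR = 0.135), Scd2-m/-m replicate 2 (FDR = 0.117) or Scd2-m/-m replicate 3 (FDR = 0.119) in the edgeR test, and held without Scd2-m/-m replicate 1 (FDR = 0.00908). Tbxas1, thromboxane A synthase, a cytochrome P450 of platelets and macrophages, was not called. It was at 99.4, 114 and 126 CPM in wild-type and at 111, 120 and 125 CPM in Scd2-m/-m libraries, with a log2 fold change of 0.06 (SE 0.08, edgeR FDR = 0.642, 95% interval -0.11 to 0.24). The genotypes overlapped, and the sign of this difference turned without wild-type replicate 1 (-0.021, edgeR FDR = 0.894).

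On the leukotriene side, Alox5 encodes 5-lipoxygenase, which carries out both first steps from arachidonate to leukotriene A4. It was at 14.3, 14.9 and 16.5 CPM in wild-type and at 13.4, 13.8 and 12.9 CPM in Scd2-m/-m libraries. The Scd2-m/-m libraries were all below the wild-type libraries by a small margin, and the gene was not called (log2 fold change -0.19, SE 0.08, edgeR FDR = 0.146). Alox5ap encodes the 5-lipoxygenase-activating protein, a membrane protein that presents arachidonate to the enzyme. It was the member with the most counts, at 345, 311 and 385 CPM in wild-type and 437, 445 and 427 CPM in Scd2-m/-m libraries. Every Scd2-m/-m library was above every wild-type library, with means of 347 ± 36.7 and 436 ± 9.10 CPM (SD, n = 3 each). The log2 fold change of 0.33 (SE 0.07, edgeR FDR = 0.00688, 95% interval 0.17 to 0.49) lost its call without wild-type replicate 2, its lowest library (0.26, FDR = 0.0594), and kept it without Scd2-m/-m replicate 1 (0.33, FDR = 0.0181). A predicted antisense gene shares 13.3% of the exon bases of Alox5ap and was not analysed here.

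Leukotriene A4 is the substrate of both remaining enzymes of this side. Lta4h, the hydrolase that makes the neutrophil attractant leukotriene B4, was at 49.4, 52.2 and 55.8 CPM in wild-type and at 55.1, 53.8 and 57.6 CPM in Scd2-m/-m libraries. These ranges overlapped, and the log2 fold change was 0.08 (SE 0.07, edgeR FDR = 0.437, 95% interval -0.06 to 0.22). Ltc4s, the synthase that joins glutathione to leukotriene A4 to form the first cysteinyl leukotriene, was at 6.00, 4.55 and 4.27 CPM in wild-type and at 6.93, 6.48 and 6.52 CPM in Scd2-m/-m libraries. All Scd2-m/-m libraries were higher, the margin over wild-type replicate 1 being narrow. The log2 fold change of 0.43 (SE 0.14, edgeR FDR = 0.0453, 95% interval 0.13 to 0.72) was close to the threshold. It kept its call only without wild-type replicate 1 (0.59, FDR = 0.00602) when each library was left out in turn; without the other libraries it lay between 0.33 and 0.45 with an edgeR FDR of 0.0846 to 0.177, and without Scd2-m/-m replicate 1 the FDR was 0.108. Gm26542, an antisense gene, shares 26.4% of the exon bases of Ltc4s and had 16 to 29 counts per library, against 210 to 387 for Ltc4s, with a log2 fold change of 0.18 (SE 0.38, edgeR FDR = 0.803). Alox15, a lipoxygenase that oxygenates arachidonate further along its chain and is abundant in resident peritoneal macrophages and eosinophils, had 3 counts per wild-type library, while the Scd2-m/-m libraries held 7, 6 and 6. It was too low to be tested. The summed counts, 9 and 19, gave a ratio of 1.88 between genotypes after scaling, with an exact 95% interval from 0.813 to 4.73 that covers counting error only. The interval takes each count as an independent observation. Even values were over-represented among low counts in these libraries, so it may be too narrow.

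Promoter sequence is shown for the 2 members that fell, and for Ltc4s as a member that rose. The stretches run 5′ to 3′ on the gene's strand, come from RefSeq on GRCm38.p6 and lie before the RefSeq transcript start. Capitals mark a match to one of the motifs searched. The Ptgs1 stretch is chr2:36230176-36230425 (plus strand). That of Ptges is chr2:30903298-30903547 (minus strand), which lies within the longer GENCODE model of the gene but in none of its exons. That of Ltc4s is chr11:50238617-50238782 (minus strand), which leaves out the 84 bases next to the RefSeq start because GENCODE places an exon there.
Ptgs1: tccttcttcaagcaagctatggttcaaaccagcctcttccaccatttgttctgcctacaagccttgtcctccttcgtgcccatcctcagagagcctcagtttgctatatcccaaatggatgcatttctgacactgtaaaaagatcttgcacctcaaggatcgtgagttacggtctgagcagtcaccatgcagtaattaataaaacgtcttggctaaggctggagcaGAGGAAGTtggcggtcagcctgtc
Ptges: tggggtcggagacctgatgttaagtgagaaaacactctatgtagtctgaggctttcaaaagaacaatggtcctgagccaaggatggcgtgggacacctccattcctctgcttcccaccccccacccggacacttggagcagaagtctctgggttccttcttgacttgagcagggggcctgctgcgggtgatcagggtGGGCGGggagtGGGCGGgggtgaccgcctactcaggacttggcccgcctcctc
Ltc4s: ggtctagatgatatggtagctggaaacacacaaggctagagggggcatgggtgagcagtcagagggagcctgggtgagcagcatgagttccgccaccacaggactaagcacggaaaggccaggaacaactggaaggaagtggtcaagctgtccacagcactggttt

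Of the 10 members, 8 had a RefSeq promoter in the table used, the others being Alox5ap and Alox15. Motifs were searched on both strands in the 250 bases before the start, and no motif overlapped another in the stretches printed. The Ptgs1 stretch held GAGGAAGT, a PU.1-like motif found in 2.44% of the 32817 promoters, 17 to 24 bases before the start, and Hpgds held it at 42 to 49 bases. PU.1 is the lineage factor of macrophages. The Ptges stretch held the GC box GGGCGG at 37 to 42 and at 48 to 53 bases, a motif that 32.7% of promoters hold and that Alox5 held at 30 to 35 bases and Ptgs2 at 165 to 170 bases. The C/EBP-like motif TTNNGCAA, in 9.57% of promoters, was in the windows of Ptgs2 and Hpgds, and TATAAA, in 12.4% of promoters, in that of Tbxas1. Annotated exons of GENCODE, on either strand, covered 178 of the 250 bases in Hpgds, 183 in Ptgs2 and 146 in Tbxas1. In Hpgds these were the bases next to the start, and they held both of its matches. None of the 9 motifs was in the windows of Ltc4s and Lta4h. The other 5 motifs, absent from the 250-base windows of the 8 members, were CGTCA (17.7% of promoters) and TGACGTCA (1.55%) of the cyclic AMP response element, TTCNNNGAA of STAT factors (7.01%), and GGGATTCC (0.89%) and GGGACTTTC (0.289%) of NF-kB. Sequence further upstream or after the RefSeq start was not searched, so a site there, in Ptgs2 or another member, would be missed. A match describes letters only, and the data hold no measurement of binding.

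Compared per length of exon, the members spanned a wide range, and their order was nearly the same in both genotypes. The length is the union of exons of all transcripts. It was 9094 bases for Tbxas1 and 3884 for Ptgs1, against 4562 and 2867 for their longest transcripts. With the longest transcript as length, all 9 neighbouring pairs kept their order in each genotype. The folds between members, their ties and the overlaps of their ranges depend on the length used. Alox5ap had 244 CPM per kb in wild-type cells and 307 CPM per kb in those of Scd2-m/-m mice, which were 9.69 and 10.1 times the level of the next member, Hpgds, at 25.2 and 30.3 CPM per kb. Alox5ap stood above 98.9% and 99.1% of all tested genes. In wild type, Tbxas1 and Ptgs1 followed, both at 12.4 CPM per kb with overlapping ranges, and then Lta4h (8.60), Ltc4s (4.87), Alox5 (3.71), Ptges (1.75), Ptgs2 (0.0808) and Alox15 (0.0251 CPM per kb). In Scd2-m/-m, Ptgs1 at 7.19 CPM per kb came below Lta4h at 9.10 CPM per kb and overlapped with Ltc4s at 6.55 CPM per kb. Ptges stood above 36.7% of tested genes in wild-type cells and above 21.6% in Scd2-m/-m cells. Ptges and Ptgs2, which are often induced together, came above Alox15 alone in this order, Ptges being at 21.7 times the level per length of Ptgs2 in wild type and 5.24 times in Scd2-m/-m.

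**Figure D2:**
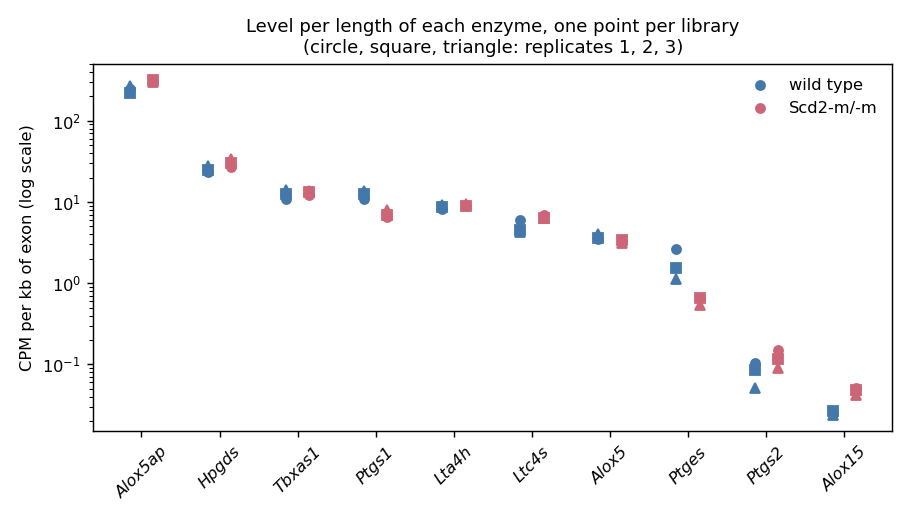
Level per length (CPM per kb of exon, log axis) of the 10 enzymes in each library, by genotype, in the order of their wild-type means. With the union of exons as length, Alox5ap is about 10 times above Hpgds in both genotypes, and Ptgs1 moves from 12.4 to 7.19 CPM per kb in Scd2-m/-m.

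Ratios between enzymes that share a substrate or act together were formed within each library, which removes library size. Over 6 such ratios, each tested by an exact two-sided permutation test over 3 against 3 libraries, the smallest p the design allows is 0.1, so none could pass 0.05. Alox5ap over Alox5, the activating protein relative to its enzyme, was 69.7, 60.3 and 67.5 in wild-type and 94.0, 93.3 and 95.9 in Scd2-m/-m libraries. The Scd2-m/-m libraries were all higher, by 0.52 on the log2 scale (SE 0.06, exact permutation p = 0.1, adjusted p = 0.12). Hpgds over Ptges, which sets a prostaglandin D2 synthase against a prostaglandin E2 synthase, was 9.06, 16.0 and 24.6 in wild-type and 40.8, 46.1 and 61.5 in Scd2-m/-m libraries. Here too the genotypes did not overlap, with a log2 difference of 1.67 (SE 0.45, exact permutation p = 0.1, adjusted p = 0.12). Ptgs2 over Ptgs1 was 0.00957, 0.00677 and 0.00380 in wild-type and 0.0225, 0.0168 and 0.0113 in Scd2-m/-m libraries, a log2 difference of 1.37 (SE 0.48) that rests on the few counts of Ptgs2. Ptges over Tbxas1 was 0.238, 0.124 and 0.0801 in wild-type and 0.0547, 0.0501 and 0.0395 in Scd2-m/-m libraries, a log2 difference of -1.48 (SE 0.48). Both of these pairs of ranges were apart, with the same exact permutation p of 0.1, as was Alox15 over Alox5, with a log2 difference of 1.10 (SE 0.11) from 3 to 7 counts of Alox15 per library. The SE of Alox15 over Alox5 measures only the spread between libraries and leaves out the counting error of so few counts. With halved counts its log2 difference was 0.75. Ltc4s over Lta4h was 0.732, 0.524 and 0.461 in wild-type and 0.757, 0.725 and 0.681 in Scd2-m/-m libraries, and these overlapped (log2 difference 0.36, SE 0.20, exact permutation p = 0.3).

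**Figure D3:**
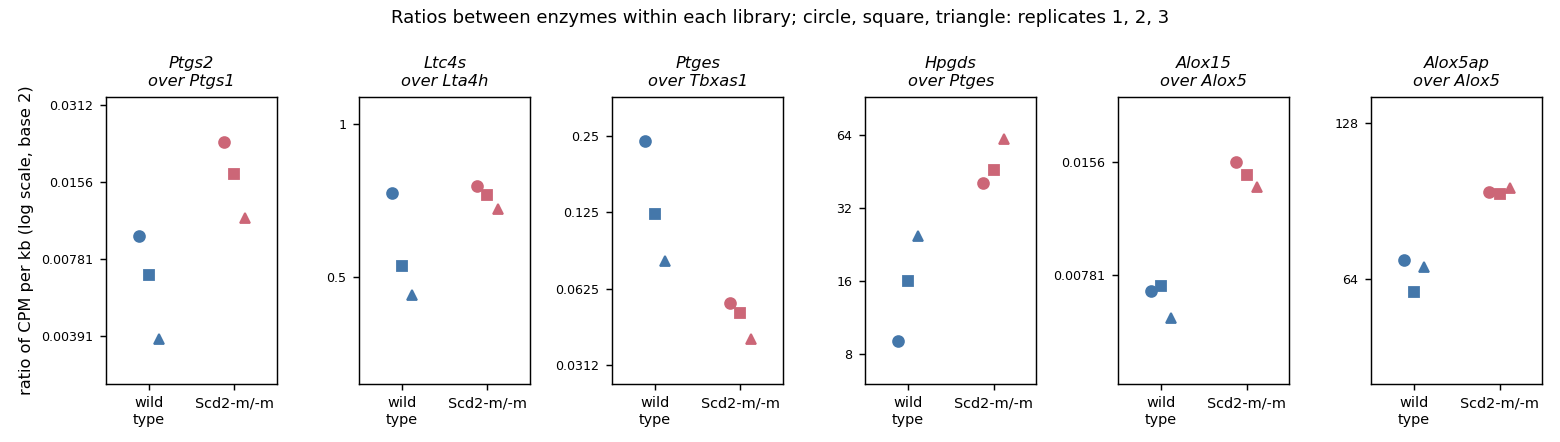
Ratio of length-scaled levels (log axis) for 6 pairs of enzymes in each of the 3 wild-type and 3 Scd2-m/-m libraries, each point being 1 library. The genotypes are apart in 5 of the 6 ratios and overlap for Ltc4s over Lta4h.

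Alox5ap, Ltc4s and Ptges belong to the MAPEG family of small membrane proteins, most of which use glutathione, together with Mgst1, Mgst2 and Mgst3. This grouping was chosen after the values were seen. Of the 6, 4 were called higher (Alox5ap, Ltc4s, Mgst2 and Mgst3), Ptges was called lower, and Mgst1 had means of 91.3 ± 5.57 and 78.7 ± 6.57 CPM, for wild type and then Scd2-m/-m (log2 fold change -0.21, SE 0.07, edgeR FDR = 0.0554). Mgst3, a glutathione transferase and peroxidase that can also conjugate leukotriene A4, went from 32.3 ± 3.84 to 55.9 ± 4.98 CPM (SD, n = 3 each; log2 fold change 0.79, SE 0.09, edgeR FDR = 4.76e-05). Mgst2, which can form leukotriene C4 outside the blood lineages, went from 0.969 ± 0.244 to 1.89 ± 0.158 CPM (log2 fold change 0.97, SE 0.23, edgeR FDR = 0.0106). Libraries of the genotypes did not overlap for any of the 6. Over all tested genes, 17.5% were called and 34.8% did not overlap.

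The wider pathway was described with lists of 93 genes, of which 91 were found and 69 tested, with 10 called higher and 16 lower. Beside these counts and those of each list below, 9.65% of all tested genes were called higher and 7.84% lower. For arachidonate supply, 15 of 20 genes were tested, with 1 called higher and 3 lower and a median log2 fold change of 0.08. Pla2g4a, the cytosolic phospholipase that releases arachidonate for both branches, was at 6.67 ± 0.914 and 8.15 ± 0.821 CPM in wild type and Scd2-m/-m and was not called (log2 fold change 0.29, SE 0.12, edgeR FDR = 0.131). Pla2g7, which hydrolyses platelet-activating factor and oxidized phospholipids, fell from 153 ± 10.6 to 87.7 ± 13.3 CPM (log2 fold change -0.80, edgeR FDR = 3.12e-04). Lpcat2, an acyltransferase of platelet-activating factor synthesis, fell by 0.40 on the log2 scale (FDR = 0.00329), and Pla2g15, the lysosomal phospholipase, fell by 0.25 (FDR = 0.0163). Mgll, the monoacylglycerol lipase that frees arachidonate from the endocannabinoid 2-arachidonoylglycerol, rose from 4.51 ± 0.629 to 7.46 ± 2.11 CPM (log2 fold change 0.73, edgeR FDR = 0.0240).

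Among the other prostanoid synthases, 8 of 11 listed genes were tested and only Fam213b, a prostamide and prostaglandin F synthase, was called, falling from 28.0 ± 1.14 to 21.5 ± 1.33 CPM (log2 fold change -0.38, edgeR FDR = 0.00222). Ptges3 and Ptges2, also prostaglandin E synthases by name, were not called. In wild type and Scd2-m/-m, Ptges3 was at 63.6 ± 3.20 and 58.3 ± 4.41 CPM (-0.13, SE 0.07, edgeR FDR = 0.241). Ptges2 was at 10.6 ± 0.391 and 9.765 ± 1.265 CPM (-0.12, SE 0.11, edgeR FDR = 0.498). Of 5 other lipoxygenases 1 could be tested, and it was not called. Leukotriene processing had 10 tested genes of 13, with 2 called higher, the Mgst2 and Mgst3 given above, and 3 called lower. The 3 were Ggt5, which converts leukotriene C4 to D4 (log2 fold change -0.88, FDR = 0.00536), Cyp4f13, of the cytochrome P450 family that inactivates leukotriene B4 (-0.42, FDR = 0.00108), and Abcc1, a transporter that exports leukotriene C4 (-0.24, FDR = 0.0189). Prostaglandin clearance had 6 tested genes of 8. Ptgr1, a reductase of oxidized prostaglandins that also oxidizes leukotriene B4 at its hydroxyl group, rose from 12.5 ± 0.709 to 21.7 ± 2.24 CPM (log2 fold change 0.80, edgeR FDR = 4.48e-05), and Zadh2, also called prostaglandin reductase 3, fell by 0.45 on the log2 scale (FDR = 6.62e-04). Hpgd, the dehydrogenase that starts prostaglandin breakdown, was at 188 ± 2.22 and 179 ± 16.7 CPM and was not called (log2 fold change -0.07, SE 0.07, edgeR FDR = 0.562).

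The receptor list held receptors of prostaglandins, thromboxane and leukotrienes, and also of other lipids such as lipoxins and resolvins. Of its 12 tested genes 8 were called, with 4 in each direction (9.65% of all tested genes were called higher and 7.84% lower). The median log2 fold change was 0.10. Those called higher were all prostanoid or leukotriene receptors, while of those called lower only Ptger4 was. Fpr2, the formyl peptide receptor that also binds lipoxin A4, fell from 22.8 ± 2.03 to 7.61 ± 0.947 CPM (log2 fold change -1.58, SE 0.10, edgeR FDR = 3.63e-07). Gpr18 and Cmklr1, proposed receptors of resolvins, fell by 1.23 (FDR = 5.19e-05) and 0.55 (FDR = 1.33e-04) on the log2 scale. Among prostaglandin E2 receptors, Ptger4 fell from 91.8 ± 1.56 to 69.4 ± 4.33 CPM (-0.40, edgeR FDR = 4.99e-04), Ptger2 was at 16.9 ± 0.887 and 19.1 ± 1.13 CPM and was not called (0.18, FDR = 0.143), and Ptger3 was called higher from a low level (1.25, FDR = 0.00363). Ltb4r1, the high-affinity leukotriene B4 receptor, was called higher at 0.157 ± 0.0666 and 0.474 ± 0.155 CPM, from 4 to 33 counts per library (1.59, SE 0.47, FDR = 0.0316). The other receptors called higher were Ptgir and Cysltr2, for prostacyclin and cysteinyl leukotrienes.

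Of 17 tested regulators of the pathway, 2 were called higher and 4 lower. Cebpd and Cebpb, transcription factors that act on Ptgs2 and Ptges in inflammation, fell from 116 ± 2.37 to 75.1 ± 2.84 CPM (log2 fold change -0.62, edgeR FDR = 6.68e-06) and from 193 ± 16.0 to 143 ± 8.73 CPM (-0.43, FDR = 7.76e-04). Nfkb1, a subunit of NF-kB, fell by 0.38 on the log2 scale (FDR = 3.86e-04), and Fos was also called lower. Anxa1, the glucocorticoid-induced protein that limits phospholipase activity, rose from 258 ± 23.6 to 364 ± 12.4 CPM (log2 fold change 0.49, edgeR FDR = 2.62e-04), and Mapkapk2 was also called higher. Without Scd2-m/-m replicate 1, 7 genes of these lists were called higher and 15 lower.

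**Figure D4:**
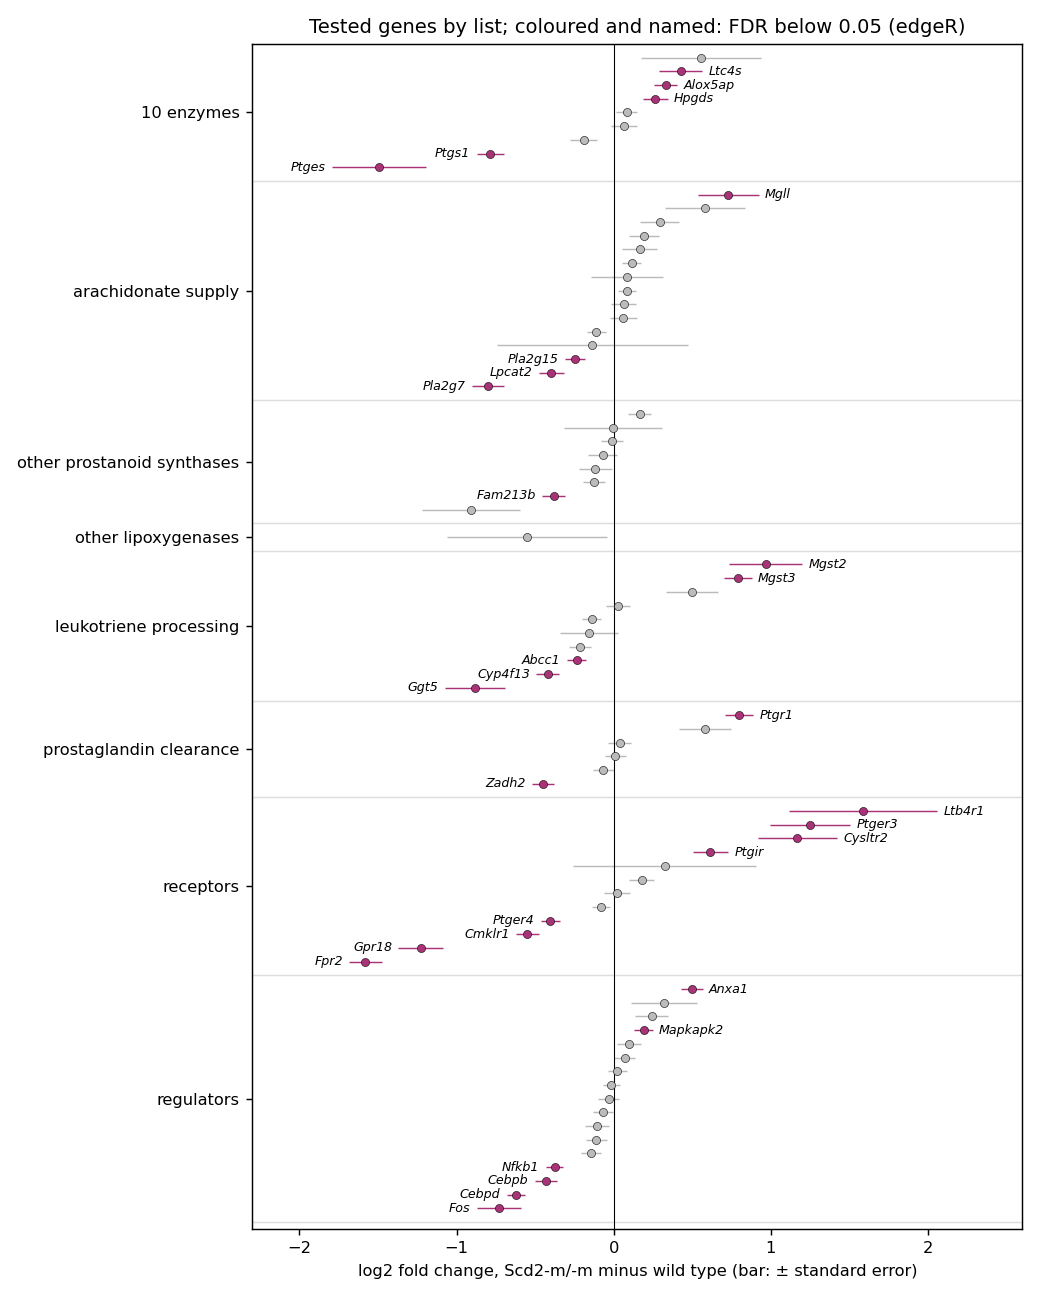
log2 fold change of Scd2-m/-m over wild type (horizontal axis, bars are ± SE) of every tested gene of the 10 enzymes and of the 7 related lists, sorted within each list. Coloured and named points have an FDR below 0.05 and grey points do not; among the enzymes Ptges and Ptgs1 are lowest and Ltc4s, Alox5ap and Hpgds are the called genes that rose.

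Several other cell types express members of the set strongly, and their markers were summed in each library. Beside the marker counts below, 9.65% of all tested genes were called higher and 7.84% lower. Mast cells, rich in Hpgds, Ltc4s and Alox5, had 9 markers with a summed level of 0.737 to 0.767 CPM in wild-type and 1.37 to 1.87 CPM in Scd2-m/-m libraries; Tpsb2, Cma1 and Mcpt4 were at 0 in all 6 libraries, the most abundant marker was Hdc, and neither of the 2 tested was called. For eosinophils and basophils, the 8 markers summed to 10.4 to 13.6 CPM in wild-type and 8.45 to 11.04 CPM in Scd2-m/-m libraries, most of it Ccr3, with Il5ra and Ear6 at 0. Of 8 neutrophil markers tested, 5 were called higher (Ltf, Ngp, Mpo, S100a8 and S100a9), and the 11 listed summed to 22.5 to 26.2 CPM in wild-type and 33.9 to 44.0 CPM in Scd2-m/-m libraries. Their most abundant marker, Mmp8, was not called and went the other way, from 12.5 ± 1.66 to 10.1 ± 1.87 CPM (log2 fold change -0.31, SE 0.13, edgeR FDR = 0.145). Megakaryocyte and platelet markers, relevant to Ptgs1 and Tbxas1, summed to 61.1 to 70.4 CPM in wild-type and 49.6 to 50.6 CPM in Scd2-m/-m libraries, with 1 of 5 tested called lower, and were mostly Pf4. The genes listed for resident peritoneal macrophages summed to 11.03 to 17.2 CPM in wild-type and 10.5 to 12.2 CPM in Scd2-m/-m libraries. Cd209b was at 0, and of 4 tested, 2 were called higher and 1 lower. This sum hides opposite changes, since Adgb, the most abundant, fell from 10.8 ± 3.75 to 3.02 ± 0.957 CPM (edgeR FDR = 0.0162). Icam2 rose from 3.05 ± 0.576 to 6.23 ± 0.286 CPM (edgeR FDR = 2.97e-04) and Timd4 from 0.423 ± 0.124 to 1.44 ± 0.274 CPM (edgeR FDR = 0.00105). The part of these cell types in the differences between genotypes was not tested. Dendritic cell markers (led by Itgax, 2 called higher), lymphocyte markers (led by Cd4, 1 called higher, Ncr1 at 0), stromal and endothelial markers (led by Kdr, 1 called lower) and erythroid markers (led by Klf1, 0 called of 2 tested) each summed to less than 45 CPM in every library.

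**Figure D5:**
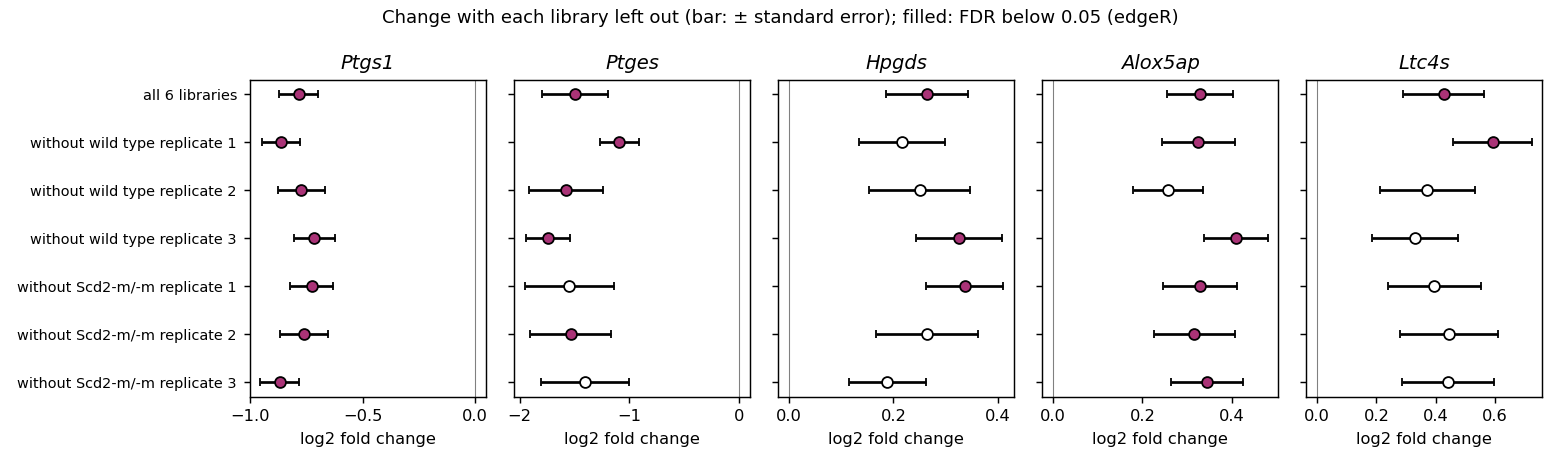
log2 fold change (horizontal axis, bars are ± SE) of the 5 called enzymes with all 6 libraries and with each library left out in turn, filled where the FDR was below 0.05. Ptgs1 stays between -0.87 and -0.72 and called throughout, while Ltc4s stays called in 1 of the 6 and Hpgds in 2 of the 6.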

How the data were processed

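RNA of unstimulated BMDMs from 3 wild-type and 3 Scd2-m/-m samples was analysed, grouped by the labels. The authors aligned reads with STAR to GRCm38 and deposited the resulting raw counts, whole numbers for each gene. How reads were counted, and whether by strand, is not stated. Even values were over-represented among low counts: 60.9% to 64.8% of counts from 1 to 20 were even. A deposited table of the authors' own comparison, with fold changes, confidence limits, p-values, statistics and log2 CPM, was not used. Per the labels' processing notes, edgeR and limma were among the submitters' tools.

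Repeated entries of a gene (276 of 40757) were removed. Counts were tested with edgeR 4.0.16 in R 4.3.3 (filterByExpr, TMM, glmQLFit with robust estimation, glmQLFTest), with Benjamini-Hochberg adjustment over all 14778 tested genes, and the script was tested on simulated data. Alternatives were RLE and upper-quartile factors, DESeq2 1.42.0, limma 3.58.1 voom with and without quality weights, no filter or at least 10 counts in every library, halved counts, an FDR of 0.01, a replicate block, another transcript length for levels, and leaving out each library. Exonic lengths and positions come from GENCODE M21 on GRCm38. Intervals from summed counts cover counting error only.

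The members and all lists were chosen with earlier results of these data known. The rule for named genes took all 10 members, Scd2, up to 4 called genes of each related list with the smallest p, Pla2g4a, Ptger2, Ptger4, Hpgd and Ltb4r1 whatever their result, and of marker lists the markers at 0 and the most abundant one. Abcc1, Ptgir, Ptger3, Cysltr2, Fos, Mapkapk2, Mgst1, Ptges2, Ptges3, Gm26542, Icam2, Timd4 and the macrophage and neutrophil markers other than Lyz2 and Mmp8 were added after their values were seen. Values of some genes are not reported here.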

Additional observations from a re-analysis of the deposited data

How the results depend on the processing

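All 5 calls among the members (Ptgs1, Ptges, Alox5ap, Ltc4s and Hpgds) held under the other normalizations, tools and filters and with halved counts. The calls of all but Ptgs1 depended on single libraries: leaving out each library in turn gave 0 to 2 members called higher (0 without wild-type replicate 2, 1 without Scd2-m/-m replicate 2 and 1 without Scd2-m/-m replicate 3) and 1 to 2 called lower (1 without Scd2-m/-m replicate 1 and 1 without Scd2-m/-m replicate 3). Tbxas1, which was not called, ranged from -0.021 (without wild-type replicate 1) to 0.15 (without wild-type replicate 3). At an FDR of 0.01, 1 member was called higher (Alox5ap), 1 lower (Ptgs1) and 6 related genes higher, in place of 3, 2 and 10. Over all genes, 2585 were called, 4507 by voom with quality weights, 1490 without wild-type replicate 2 and 1440 without Scd2-m/-m replicate 2; the cause was not tested. Each scaling moved the median of all genes by less than 0.1.

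The replicate numbers were not taken to pair the samples: deviations of same-numbered libraries correlated at 0.104, -0.054 and 0.083 across genes. With the replicate number as a block, 3 members were called higher and 2 lower, 13 related genes higher and 17 lower, and 2974 genes in all; Ptges was at -1.43 (edgeR FDR = 8.52e-05) and Ltc4s at 0.44 (edgeR FDR = 0.0280). Depth limits Alox15 and Ptgs2 most, at 3 to 7 and 12 to 38 counts per library.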

Other observations

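Wild-type replicate 1 was the highest of its genotype for Ptgs2, Ptges and Ltc4s and the lowest for Ptgs1, Alox5, Lta4h, Hpgds and Tbxas1, so it was at an end for 8 of the 10 enzymes, and over all tested genes it was at an end for 73.4%. Wild-type replicate 3 was the highest for 6 of the 10 and the lowest for the other 4, against 69.9% of all tested genes at either end. Wild-type replicate 2 was at an end for 2 of the 10 (56.7% of all tested genes), and Scd2-m/-m replicates 1, 2 and 3 for 7, 4 and 9 of the 10 (73.8%, 51.4% and 74.8% of all tested genes).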
